A study of Mus musculus with 3 samples.

Results

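The cyclins and cyclin-dependent kinases (CDKs) described here are 10 of the 31053 genes in the feature tables, chosen by name and ordered by the stage of the cell cycle at which they act. They are Ccnd2, Ccnd3, Cdk4 and Cdk6 for G1, Ccne1, Ccne2 and Cdk2 for the passage from G1 to S, Ccna2 for S and G2, and Ccnb1 and Cdk1 for G2 and mitosis. They were measured by single-cell RNA sequencing of live CD3+ CD4+ T cells sorted from spleens of C57BL/6 mice, as counts of unique molecular identifiers (UMIs), the tags that tell captured RNA molecules apart. The unstimulated wild-type (WT) cells carried Ift20 f/f without Cre and were kept in the buffer DPBS, and the stimulated WT cells of the same genotype spent 24 h with antibodies to CD3 and CD28, each at 1 μg/mL. The stimulated IFT20-KO cells carried Ift20 f/f with CD4 cre and had the same culture. All groups therefore carried the floxed Ift20 gene, and per the methods the mice were males, 5 to 10 weeks old. The number of animals behind a library is not given in the sources used here. A figure legend of the paper calls the cells activated from both genotypes naive CD4+ T cells, while its sequencing methods name no naive enrichment. Whether the unstimulated cells were enriched in the same way is thus uncertain. Cre under the control of Cd4 elements is known to be active already in developing thymocytes, including those that become CD8 cells.

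Each group was 1 library, so no value has a replicate, no test was made, and every 95% interval covers counting error only. The kept cells numbered 8031 in unstimulated WT, 9903 in stimulated WT and 13920 in stimulated IFT20-KO. Their median UMI counts were 4627, 12167 and 5014.5, and cells under 4056 UMIs, which is the stimulated WT median divided by 3, made up 34.5%, 23.2% and 48.0% of the libraries. In stimulated WT, the median share of mitochondrial UMIs was 10.3% in cells under that count and 1.26% in the others, and in IFT20-KO it was 5.66% and 1.08%. Ift20 itself stood at 64.4, 76.0 and 6.60 UMIs per 1000000 UMIs of the library (CPM) in unstimulated WT, stimulated WT and IFT20-KO. Each pair of libraries shared 114 to 197 cell barcodes, at most 1.99% of a library. Cd3e was at 905 to 1022 CPM in the 3 libraries, while Lyz2, Ncr1 and the 4 hemoglobin genes examined had at most 1 UMI in any library. In the order unstimulated WT, stimulated WT and IFT20-KO, the 6 B cell markers summed to 3.66, 0.898 and 1.47 CPM, the 4 NK cell markers to 4.6, 4.18 and 4.24 CPM, and the 7 myeloid markers to 80.2, 76.4 and 80.4 CPM, nearly all of it Cst3. The 2 CD8 genes summed to 28.7, 9.16 and 11.5 CPM. The 3 regulatory T cell markers summed to 42.3, 30.8 and 46.2 CPM, and all 3 were higher in IFT20-KO than in stimulated WT, with Foxp3 at 3.12 and 4.69 CPM. Their part in the results below was not tested.

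A cyclin has no catalytic activity of its own and switches on the CDK it binds. In T cells leaving rest, D-type cyclins pair with CDK4 or CDK6 and phosphorylate the retinoblastoma protein, which releases E2F factors, whose targets include cyclin E genes. Cyclin E with CDK2 then drives entry into S phase, cyclin A2 acts through S and G2, and cyclin B1 with CDK1 drives mitosis. Much of this control acts on proteins through synthesis, degradation and inhibitors, none of which transcript counts measure.

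The member genes lie on GRCm38 as follows, with the positions of GENCODE M21. Ccnd2 (ENSMUSG00000000184) is at chr6:127125162-127152193 on the reverse strand, and Ccnd3 (ENSMUSG00000034165) is at chr17:47505051-47599691 on the forward strand. Cdk4 (ENSMUSG00000006728) is at chr10:127063534-127067920 and Cdk6 (ENSMUSG00000040274) at chr5:3341485-3531008, both forward. Ccne1 (ENSMUSG00000002068) is at chr7:38097984-38107534 in reverse, Ccne2 (ENSMUSG00000028212) at chr4:11191351-11204779 forward, and Cdk2 (ENSMUSG00000025358) at chr10:128697939-128705031 in reverse. Ccna2 (ENSMUSG00000027715), Ccnb1 (ENSMUSG00000041431) and Cdk1 (ENSMUSG00000019942) are all on the reverse strand, at chr3:36564865-36572150, chr13:100778650-100786570 and chr10:69335146-69352938. The annotation also names the pseudogenes Ccnd3-ps and Ccnb1-ps, neither of which is in the feature tables. Reads that match such a copy as well as the gene cannot be assigned with certainty, so the counts of Ccnd3 and Ccnb1 are uncertain in that respect. Annotated genes overlap Ccnd2, Ccnd3, Cdk4, Cdk6, Ccne2, Cdk2 and Ccna2, in every case on the opposite strand.

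RefSeq promoter sequences on GRCm38.p6 were matched for 7 of the 10 members. They were Ccnd3, Cdk4, Cdk6, Ccne1, Cdk2, Ccnb1 and Cdk1, and those of Cdk1, Ccnb1, Ccne1 and Cdk4 are shown because these genes stood for different patterns in the stimulated cells below. Each is written 5′ to 3′ on the strand of its gene and ends before the first base of the gene in GENCODE. The stretches are chr10:69352939-69353162 for Cdk1, chr13:100786571-100786736 for Ccnb1, chr7:38107535-38107740 for Ccne1 and chr10:127063285-127063533 for Cdk4. Capitals mark the motifs searched on both strands, which were the E2F motifs TTTCGCGC and TTTGGCGC, the CCAAT box, TTTGAA (the cell cycle genes homology region, CHR) and the E-box CACGTG. No matches overlapped each other.
Cdk1: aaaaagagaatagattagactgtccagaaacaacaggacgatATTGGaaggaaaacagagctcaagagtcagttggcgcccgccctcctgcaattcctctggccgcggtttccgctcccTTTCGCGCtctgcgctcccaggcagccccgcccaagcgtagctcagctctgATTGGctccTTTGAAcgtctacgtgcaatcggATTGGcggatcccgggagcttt
Ccnb1: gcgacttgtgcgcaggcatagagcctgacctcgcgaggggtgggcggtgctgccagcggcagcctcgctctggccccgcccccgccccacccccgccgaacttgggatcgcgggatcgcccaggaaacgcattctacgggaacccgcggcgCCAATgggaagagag
Ccne1: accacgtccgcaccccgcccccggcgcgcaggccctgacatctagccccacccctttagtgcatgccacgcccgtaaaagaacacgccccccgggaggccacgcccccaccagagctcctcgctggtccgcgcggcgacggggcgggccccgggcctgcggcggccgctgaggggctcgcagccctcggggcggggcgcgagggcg
Cdk4: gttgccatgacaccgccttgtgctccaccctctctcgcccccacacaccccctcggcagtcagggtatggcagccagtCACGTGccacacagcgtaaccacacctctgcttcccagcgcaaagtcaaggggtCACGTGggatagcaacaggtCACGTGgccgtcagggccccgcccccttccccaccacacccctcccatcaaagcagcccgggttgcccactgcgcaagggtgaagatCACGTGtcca

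Over the full window of 250 bases before the RefSeq start, Cdk1 was the member with matches to 3 kinds of motif. It held TTTCGCGC at 131 to 124 bases before the start, 3 CCAAT boxes on the opposite strand and 2 TTTGAA matches, of which the one at 15 to 10 bases lies outside the stretch shown. Ccnb1 held 2 CCAAT boxes, at 99 to 95 and 67 to 63 bases before the start, of which the latter lies outside the stretch shown, and no TTTGAA. Cdk4 held 4 E-boxes, Cdk6 held 1, and no match of any motif was found for Ccne1 in this window. Cdk2 held 1 CCAAT box, at 45 to 41 bases before the start. Of the 2 Ccnd3 promoters, 1 held a CCAAT box, at 108 to 104 bases. Of 32851 promoters of the same length, 0.256% held TTTCGCGC, 33.8% a CCAAT box, 16% TTTGAA and 6.02% CACGTG. A match describes letters in the window and does not show that a factor binds there.

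To find which members differed after 24 h of stimulation, the stimulated WT library was set against the unstimulated one. Of the 10 members, 8 were at least 2-fold higher in CPM and 0 at least 2-fold lower. Of the 13297 genes with 10 or more UMIs in the pair of libraries, 19.3% were 2-fold higher and 23% were 2-fold lower. All 10 members passed that minimum. Their median log2 ratio was 2.14, and that of all genes was -0.089. The members within 2-fold were Ccnd3 and Cdk2.

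The G1 cyclins moved apart. Ccnd2, which encodes cyclin D2, was at 335 CPM (95% Poisson interval 330 to 341) in unstimulated WT, 901 CPM (896 to 906) in stimulated WT and 826 CPM (820 to 831) in IFT20-KO. Its log2 ratio of stimulated over unstimulated WT was 1.43 (counting interval 1.40 to 1.45), the lowest of the 8 members past 2-fold. Ccnd3 stood at 298 CPM before stimulation and at 164 CPM in stimulated WT and 153 CPM in IFT20-KO. Its share of the library was thus lower after stimulation, with a log2 ratio of -0.86 (-0.90 to -0.83), but its UMIs per 100 cells were higher, at 194 against 138, since the stimulated cells held more RNA counts in all. The other 9 members were higher on both scales, where 47% of all genes were higher in CPM. In UMIs per cell every log2 ratio of this comparison is larger by 1.35, and the median of all genes becomes 1.26.

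Both kinases of the D-type cyclins had higher shares in stimulated cells. Cdk4 was at 101, 384 and 387 CPM in unstimulated WT, stimulated WT and IFT20-KO, a log2 ratio of 1.93 (1.88 to 1.98) for stimulation. Cdk6 was at 5.39, 32.4 and 39.5 CPM in the same order, and its log2 ratio was 2.59 (2.38 to 2.80). Cdk4 was detected in 80.6% of stimulated WT cells and Cdk6 in 26.8%, where the unstimulated library had 35.0% and 2.3%.

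Cyclin E genes differed from their kinase. Ccne1 was at 4.34 CPM in unstimulated WT, 14.6 CPM in stimulated WT and 17.4 CPM in IFT20-KO, with a log2 ratio of 1.75 (1.52 to 1.99) for stimulation. Ccne2 was almost absent before stimulation, with 9 UMIs in 8031 cells or 0.242 CPM, and reached 2.43 CPM in stimulated WT and 4.87 CPM in IFT20-KO. That is a log2 ratio of 3.32, with a wide interval of 2.38 to 4.47 because of the few UMIs in the reference. Cdk2 differed least among the members higher in stimulated cells. Its levels were 17, 30.1 and 34.3 CPM and its log2 ratio was 0.83 (0.71 to 0.95).

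The members of S, G2 and mitosis had few UMIs before stimulation. Ccna2 stood at 0.808 CPM in unstimulated WT, 7.86 CPM in stimulated WT and 11.9 CPM in IFT20-KO, a log2 ratio of 3.28 (2.76 to 3.86) for stimulation. Its 30 UMIs in unstimulated cells came from 9 cells, or 3.33 UMIs per detecting cell, which is more than in any stimulated library. Leaving out the 5% of cells with the most UMIs in each library raised its log2 ratio to 4.86. Cdk1 had the largest ratio of the 10 members, at 0.943, 14.8 and 16.6 CPM, or 3.97 on the log2 scale (3.49 to 4.50). Ccnb1, its G2 and mitosis cyclin, was at 0.619, 3.17 and 3.78 CPM, or 2.36 on the log2 scale (1.75 to 3.03).

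**Figure D1:**
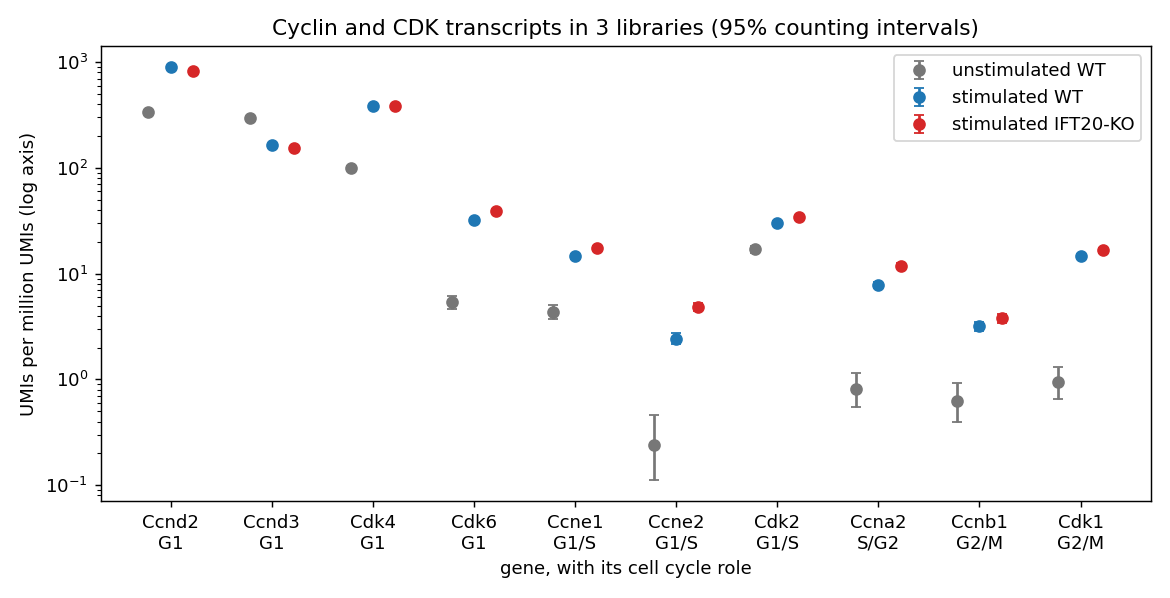
UMIs per 1000000 UMIs of the 10 genes on a log axis, in 1 library each of unstimulated WT (grey), stimulated WT (blue) and stimulated IFT20-KO (red), with 95% Poisson intervals. In CPM the 2 stimulated libraries lie above the unstimulated one for every gene but Ccnd3 (298 against 164 and 153), which in UMIs per cell is higher in stimulated WT.

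Detection moves with depth, so 1400 UMIs were drawn at random from each cell, which left out 801 unstimulated and 421 stimulated WT cells and no IFT20-KO cell. Ccnd2 was then found in 34.4% of unstimulated WT, 65.9% of stimulated WT and 64.0% of IFT20-KO cells. Cdk4 was found in 12.8%, 36.5% and 36.4%, and Ccnd3 in 32.0%, 20.4% and 21.4%. At equal depth Ccnd2 and Cdk4 were thus found in a larger share of stimulated cells and Ccnd3 in a smaller one. Of the members of later stages, Cdk1 was found in 0.0553%, 1.5% and 2.14%, Ccna2 in 0.0553%, 0.833% and 1.63%, and Ccnb1 in 0.0138%, 0.443% and 0.625%.

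Free RNA in a droplet can give a UMI in a cell that does not express the gene, so the same shares were taken in stimulated cells with at least 3 UMIs of 7 naive T cell genes (Klf2, S1pr1, Il7r and others) and 0 UMIs of 7 activation genes. There were 131 such cells in stimulated WT, with a median of 1670 UMIs, and 159 in IFT20-KO, with a median of 2294. After thinning, Cdk4 was found in 17.5% (10.6 to 26.6) of 97 such WT cells, below its 36.5% of all stimulated WT cells. Ccnd2 was found in 55.7% (45.2 to 65.8) of them and Ccnd3 in 33.0% (23.8 to 43.3), where all stimulated WT cells had 65.9% and 20.4%. Cdk6 was found in 13.4% (7.33 to 21.8) and Cdk2 in 8.25% (3.63 to 15.6) of them, where all stimulated WT cells had 5.90% and 4.23%. Cdk1 was found in 3 of the 97 WT cells, 3.09% (0.642 to 8.77), Ccne1 also in 3, Ccne2 in 1, Ccnb1 in 1 and Ccna2 in 0, with an upper limit of 3.73%. For Ccnd3, Cdk6, Cdk2, Cdk1, Ccne1, Ccne2 and Ccnb1 the share over all stimulated WT cells was therefore no higher than the level in these cells. At 1400 UMIs it is not read as a share of expressing cells. Of unstimulated cells of the same pattern, 31.6% (30.0 to 33.2) held Ccnd3, 33.6% (31.9 to 35.2) Ccnd2 and 12.9% (11.8 to 14.1) Cdk4. The part of free RNA in these levels was not tested in either library. Detecting cells among the 97 WT cells numbered 1 to 3 for each of Cdk1, Ccne1, Ccne2 and Ccnb1, and 0 for Ccna2. The intervals are thus too wide to set the level of these genes in those cells closely. Whether the 97 WT cells express the members themselves was not tested. In the 159 IFT20-KO cells Cdk4 was found in 32.7% (25.5 to 40.6), near its 36.4% over the library. Cdk1 was found in 2.52%, Ccna2 in 1.26% and Ccnb1 in 0 of them, with an upper limit of 2.29%. Ccne2 was found in 3.77% (1.40 to 8.03) and Ccne1 in 5.03% (2.20 to 9.67), where all IFT20-KO cells had 1.03% and 2.56%. For Ccne2, Ccne1 and Cdk1 the share over all IFT20-KO cells was thus no higher than in these cells. In unstimulated cells of the same pattern Cdk1 was found in 2 of 3266.

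**Figure D2:**
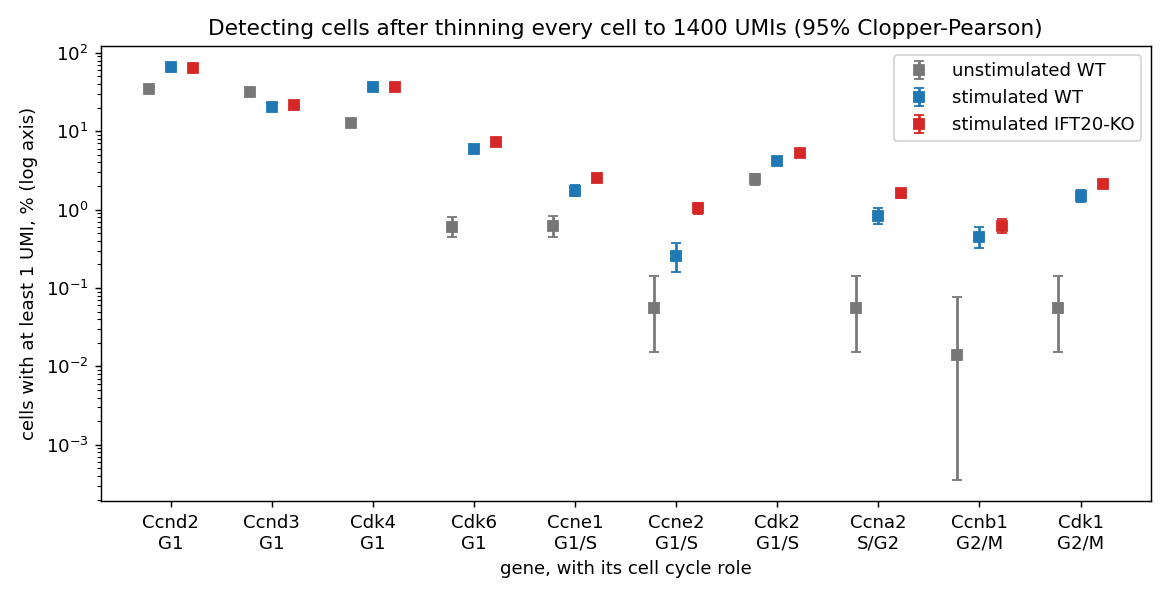
Share of cells with at least 1 UMI of each gene on a log axis, after each cell was thinned to 1400 UMIs, in the 3 libraries, with 95% Clopper-Pearson intervals. Ccnd2 and Cdk4 are higher in both stimulated libraries, at 65.9% and 36.5% in WT, and Ccnd3 is lower, at 20.4%.

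The low members were not spread evenly over the stimulated cells. Cells of 4056 UMIs or more were thinned to 4056 UMIs and put into classes by their UMIs of 24 replication genes (Mcm2, Pcna, Rrm2 and others) or of 35 mitotic genes (Mki67, Top2a, Plk1 and others), neither of which holds a member. Such a class is a range of a count, not a cell type or a cell cycle stage. The top mitotic class is therefore not read as cells in mitosis. Of the 230 CPM of the mitotic list in stimulated WT, Top2a made up 39.3 CPM and Plk1 1.38 CPM. For the edge between 1 to 2 and 3 to 9 mitotic UMIs, 11.5% of WT and 16.4% of IFT20-KO cells lay within 1 UMI. In stimulated WT, 4414 cells had 0 mitotic UMIs, 486 had 3 to 9 and 46 had 10 or more.

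Ccna2 was the member most concentrated in the class of 10 or more mitotic UMIs. It stood at 1.12 CPM in WT cells with 0 mitotic UMIs and at 47.7 CPM in cells with 3 to 9. The 46 WT cells in the top class had 279 CPM (208 to 365), a 249-fold difference from the bottom class (146 to 441), and 65.2% of them held a Ccna2 UMI. In IFT20-KO the bottom and top classes had 3.07 and 233 CPM, which is a 75.7-fold difference (50.9 to 114). The 71 IFT20-KO cells of the top class and the 46 WT cells carried 25.6% and 27.4% of the Ccna2 UMIs in the thinned cells.

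Cdk1, Ccne1 and Ccne2 followed in the same cells. Cdk1 was at 4.19 CPM in WT cells with 0 mitotic UMIs and at 129 CPM in the top class, a 30.7-fold difference (18.5 to 49.2). In that class 45.7% of the cells held Cdk1, above the 0 of 21 resting-pattern WT cells at this depth, although the upper limit for so few cells is 16.1%. Ccne1 was 23.2-fold higher (15 to 34.8) in the top than in the bottom class, at 161 against 6.93 CPM. Ccne2 was 59.1-fold higher (21.2 to 154), on 8 UMIs in the top class.

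In stimulated WT, Ccnb1 did not follow them as closely. It was at 2.07 CPM in WT cells without mitotic UMIs and at 10.7 CPM in the top class, where it had 2 UMIs, a 5.19-fold difference whose interval of 0.606 to 20.1 includes no difference. In IFT20-KO it was 9.41-fold higher (3.21 to 22.9), on 6 UMIs, where Ccne2 was 9.72-fold higher (3.31 to 23.7). By replication UMIs, Ccnb1 was 3.08-fold higher (1.30 to 7.50) in WT cells with 20 or more than in cells with 0 to 4. Cdk1 was 33.3-fold (19 to 63.8) and Ccna2 54.8-fold (24.6 to 152) higher there. In IFT20-KO these folds lay closer together, at 7.67 (3.01 to 25.0) for Ccnb1, 9.98 for Cdk1 and 12.3 for Ccna2. Those of Ccne1 and Ccne2 were 8.02 and 5.05.

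The G1 members and Cdk2 differed less between these classes than Ccna2, Cdk1, Ccne1 and Ccne2 did, and not in 1 direction. Ccnd2 was lower in the top mitotic class, at 0.699-fold (0.578 to 0.838) of the bottom class in WT and 0.812-fold (0.702 to 0.934) in IFT20-KO. Between the outer replication classes it was level, at 0.994-fold (0.947 to 1.04) in WT. In the WT classes between them it was higher, at 921 CPM (902 to 940) and 933 CPM (915 to 952), against 819 and 814 CPM in the outer ones. Ccnd3 was 2.75-fold higher (2.14 to 3.49) in the top mitotic class and 2.51-fold higher (2.28 to 2.76) in the top replication class. Cdk4 was 1.27-fold (1.01 to 1.58), Cdk6 2.58-fold (1.32 to 4.56) and Cdk2 2.36-fold (1.17 to 4.26) higher by mitotic class. So Ccnd2 and Ccnd3, which moved apart with stimulation, also lay apart within the stimulated cells. Ccnd3 was the one of the pair that was higher in the top than in the bottom replication and mitotic classes.

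**Figure D3:**
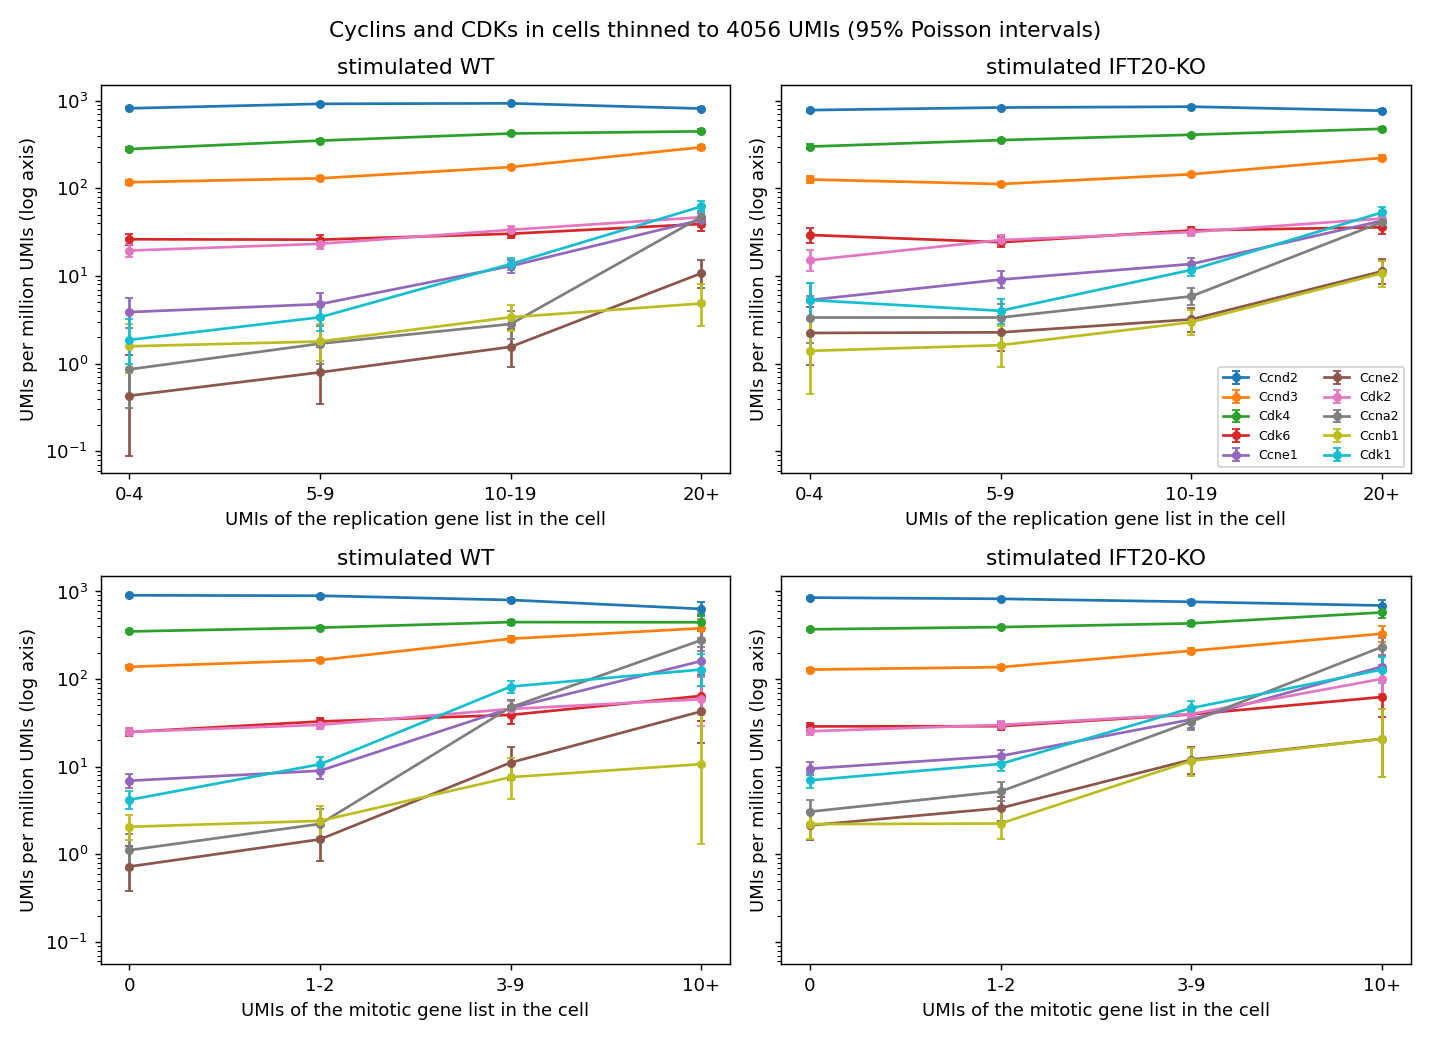
UMIs per 1000000 UMIs on a log axis, in cells thinned to 4056 UMIs, by the UMIs of the replication list (top row) or the mitotic list (bottom row) in the cell, for stimulated WT (left) and IFT20-KO (right), with 95% Poisson intervals. Lines join the classes of 1 gene. In WT, Ccna2, Cdk1, Ccne1 and Ccne2 climb steeply and Ccnb1 less so. In IFT20-KO, Ccnb1 and Ccne2 climb alike by mitotic class, at 9.41-fold (3.21 to 22.9) and 9.72-fold (3.31 to 23.7). Between the outer classes Ccnd2 is level or lower in both libraries.

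Detection of 2 members in the same cell gave a like grouping without the use of any list. Of the 141 stimulated WT cells with Ccna2 at 4056 UMIs, 35.5% (27.6 to 44.0) also held Cdk1, against 4.25% of all 7602 cells. In the same 141 cells, 28.4% (21.1 to 36.6) held Ccne1, against 4.06% of all cells. Of the 58 cells with Ccne2, 22.4% (12.5 to 35.3) held Ccne1 and 19% (9.87 to 31.4) held Ccna2. Of the 77 cells with Ccnb1, 7 held Cdk1, which is 9.09% (3.73 to 17.8), so the interval reached down to under the share over all cells. For Ccnd2 and Cdk4, which were detected in 93.8% and 75.2% of all these cells, the ratio cannot rise far above 1, so joint detection says little about them.

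In IFT20-KO the joint detection of Ccna2, Cdk1 and cyclin E was lower relative to their single shares. Of 218 cells with Ccna2, 20.2% (15.1 to 26.1) held Cdk1, against 4.80% of all 7244 cells, a 4.20-fold excess where WT had 8.35-fold. Ccne1 was held by 16.1% (11.4 to 21.6) of them, a 2.99-fold excess where WT had 6.98-fold. The intervals of the 2 libraries did not overlap for Cdk1 in cells with Ccna2 and did so narrowly for Ccne1. For Ccnb1 the order was the other way, with Cdk1 in 14.9% (8.39 to 23.7) of 94 cells, a 3.1-fold excess where WT had 2.14-fold. That rests on 14 cells with both genes in IFT20-KO and 7 in WT. The WT interval of 3.73 to 17.8 overlapped, so this order is not read as a difference.

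**Figure D4:**
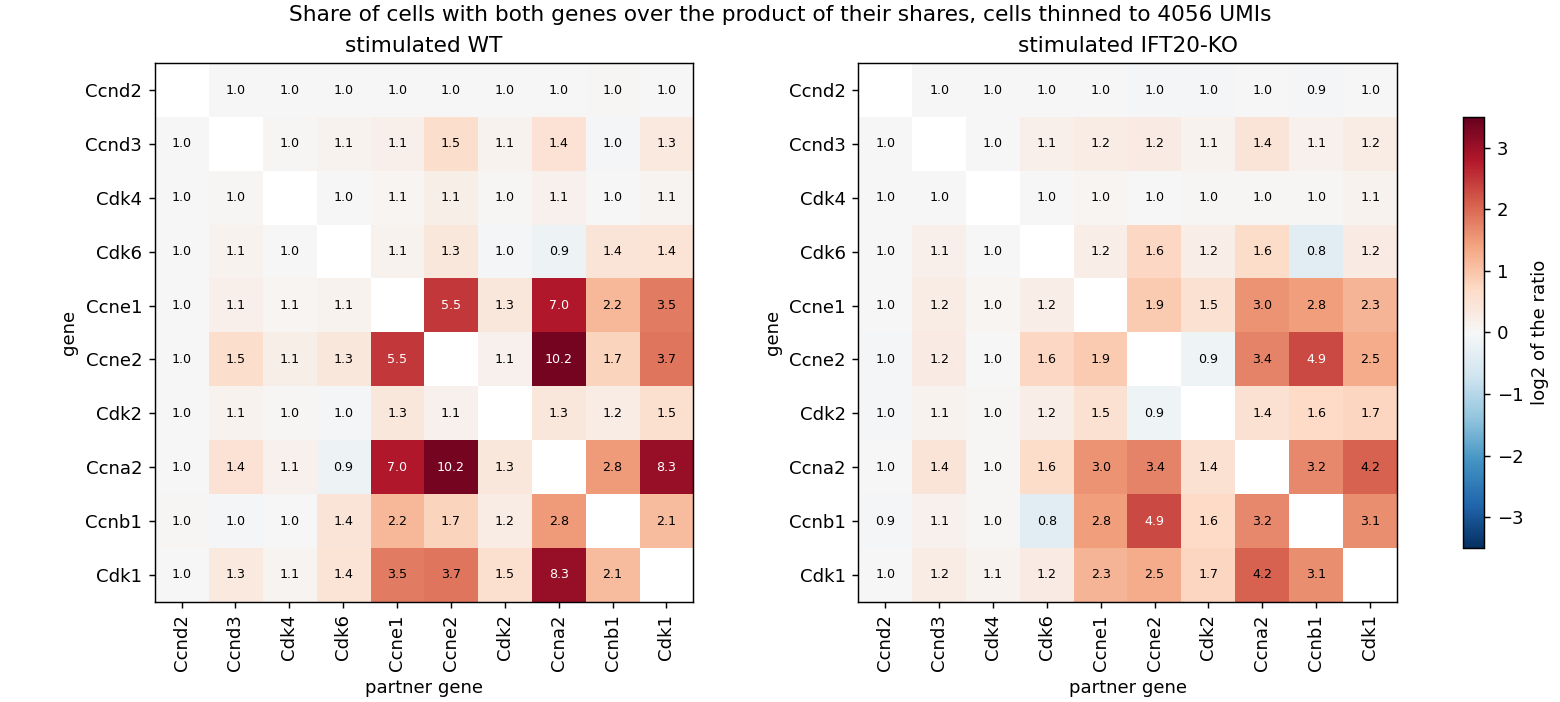
Ratio of the share of cells with both genes to the product of their single shares, in cells thinned to 4056 UMIs, for stimulated WT (left, 7602 cells) and IFT20-KO (right, 7244 cells). The numbers are the ratios and the color is their log2. Ccna2 with Cdk1 stands at 8.3 in WT and 4.2 in IFT20-KO, and the rows of Ccnd2 and Cdk4, which most cells held, cannot rise far above 1.

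Genes with the most similar pattern over cells were ranked by the Pearson correlation of ln(1 + UMIs per 10000 UMIs) over the 7602 stimulated WT cells of at least 4056 UMIs, as a description, since these cells share a library and a range of depth. Ccna2 was nearest to Pclaf (r = 0.68), which encodes a PCNA-binding protein, then to Birc5 (r = 0.65), the chromosomal passenger protein survivin, and Rrm2 (r = 0.61), a subunit of ribonucleotide reductase. The same 3 genes came first for Cdk1 (r = 0.54 for Pclaf) and for Ccne1 (r = 0.42 for Pclaf). Ccne2 was nearest to Pclaf, Mki67 and Rrm2, with r of 0.30, 0.30 and 0.28. The corresponding r over the 7244 IFT20-KO cells was lower, at 0.54, 0.41, 0.31 and 0.19 for Pclaf with Ccna2, Cdk1, Ccne1 and Ccne2. These genes were chosen by their r in WT, which favours a lower r in IFT20-KO. The cells were also not thinned, with a median of 13952 UMIs in WT and 11716 in IFT20-KO. The lower r is therefore not read as a difference between the libraries.

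Of the G1 members, Cdk4 and Ccnd2 had other neighbours. Cdk4 was nearest to Ptma (r = 0.39), Ran (r = 0.39), a GTPase of nuclear transport, and Hspd1 (r = 0.37), a mitochondrial chaperone. Ccnd2 was nearest to Hivep3 (r = 0.35), Srsf7 (r = 0.33), a splicing factor, and Pdcd1 (r = 0.33), which encodes the inhibitory receptor PD-1. Ccnd3 was nearest to Gmnn, Stmn1 and Vim, each at r = 0.25. Gmnn encodes geminin, an inhibitor of replication licensing. The 10 nearest genes of Ccnd3 lay close together, from r = 0.25 to r = 0.23. Top2a, at rank 5 with r = 0.245, was also at rank 5 for Cdk1, Ccne1 and Ccne2, so Ccnd3 shared this neighbour with them. For Cdk6, Cdk2 and Ccnb1 no gene reached r = 0.2.

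To see whether loss of IFT20 went with another level of these genes, the stimulated IFT20-KO library was set against stimulated WT. The limit for this comparison was a log2 ratio of 0.32 in either direction, a smaller step than for stimulation. Of the 10 members, 2 were past it in the higher direction, Ccne2 and Ccna2, and 0 in the lower, where 30.1% of 13504 genes were past it higher and 6.3% lower. The members' share of 2 in 10 was thus not above that of all genes. Their median log2 ratio was 0.22, and that of all genes was 0.14. The direction depended on the scale: in UMIs per cell every log2 ratio is lower by 0.63, since IFT20-KO cells held fewer UMIs, and the 7 members Cdk4, Cdk6, Ccne1, Cdk2, Ccna2, Ccnb1 and Cdk1 then changed sign.

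Without cells under 4056 UMIs, which were 23.2% of stimulated WT and 48.0% of IFT20-KO cells, the same 2 members were past the limit higher and 0 lower, where 15.8% of 13201 genes were higher and 7.7% lower. The median of the members was 0.11 and that of all genes 0.048. Cells are called small or larger here by UMI count alone, since neither cell size nor reads per library were measured. In UMIs per cell of these larger cells, every log2 ratio is lower by 0.26 and the median of all genes was -0.21. On that scale Ccne2 at 0.34 was the member past the limit higher, and Ccna2 was at 0.22. Ccnd2 at -0.36 and Ccnd3 at -0.44 were past it lower, and 6 members changed sign. The share of all genes past the limit on that scale is not given, so these counts are not read as results about the members. Ccne2 was at 2.43 CPM in WT and 4.87 CPM in IFT20-KO over all cells, a log2 ratio of 1.00 (0.79 to 1.22). In cells of 4056 UMIs or more it was at 2.22 and 3.35 CPM, or 0.59 on the log2 scale (0.35 to 0.84), so its excess was smaller but its interval still lay above 0. Ccna2 was at 7.86 and 11.9 CPM over all cells, a log2 ratio of 0.60 (0.47 to 0.72). It was at 7.80 and 10.8 CPM in the larger cells, a log2 ratio of 0.48 (0.34 to 0.61).

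The other members stayed within the limit in both sets of cells. Cdk6 was the member whose ratio depended most on the small cells besides Ccne2, with 0.29 (0.22 to 0.35) over all cells and 0.0060 (-0.068 to 0.080) without them. Cells under 4056 UMIs held Cdk6 at 112 CPM in WT and 94.5 CPM in IFT20-KO, where the larger cells held it at 29.3 and 29.4 CPM. Ccnd2 and Ccnd3 were slightly lower in IFT20-KO, at -0.13 and -0.10 over all cells and -0.11 and -0.18 without the small cells, with intervals that lay below 0, although Ccnd3 changed sign when all cells were thinned to 1400 UMIs. Cdk4 was at 0.011 (-0.0088 to 0.030) over all cells. Ccne1, Cdk2, Ccnb1 and Cdk1 were at 0.25, 0.19, 0.25 and 0.17 over all cells and at 0.13, 0.096, 0.15 and 0.16 without the small ones. The interval of Ccnb1 then included 0, from -0.074 to 0.38.

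Among the cells under 4056 UMIs alone, 5 members were past the limit higher in IFT20-KO and 0 lower, where 19.2% of 11680 genes were higher and 25.2% lower. They were Cdk4 at a log2 ratio of 0.46 (0.35 to 0.56), Ccne1 at 0.38 (0.044 to 0.73), Ccne2 at 0.76 (0.23 to 1.33), Ccna2 at 0.87 (0.40 to 1.38) and Cdk1 at 0.83 (0.34 to 1.35). These cells differed in depth and mitochondrial share between the libraries, with medians of 1829 UMIs in WT and 2421 in IFT20-KO, and the part of that in these ratios was not tested.

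Ccna2, Cdk1 and Ccne1 differed more between the libraries within each range of depth above 4056 UMIs than in those ranges pooled. The same held for Ccne2, Ccnb1, Cdk2 and Cdk4, so it was not particular to those 3. The median log2 ratio of all genes was 0.16, 0.047 and 0.024 from the lowest range to the highest, against 0.048 in the pooled cells. In cells of 4056 to 8111 UMIs, the range with the fewest UMIs, the intervals of Ccna2, Cdk1 and Ccne1 included 0. In cells of 8112 to 16223 UMIs (4525 in WT and 4837 in IFT20-KO), Ccna2 was at 2.98 and 5.97 CPM, or 1.00 on the log2 scale (0.73 to 1.28). In the same cells Cdk1 was at 7.49 and 11.6 CPM, or 0.63 on the log2 scale (0.46 to 0.81), and Ccne1 at 8.16 and 12.3 CPM, or 0.59 on the log2 scale (0.42 to 0.77). In cells of 16224 UMIs or more, Ccna2 stood at 13.2 and 23.0 CPM, with a log2 ratio of 0.80 (0.64 to 0.96), and Cdk1 at 23.7 and 30.9 CPM, with 0.38 (0.25 to 0.51). These largest cells, where Ccna2 and Cdk1 were highest, made up 25.3% of the WT and 9.06% of the IFT20-KO library. With the depth classes above 4056 UMIs weighted as in WT, an alternative chosen after seeing the data, 4 members were past the limit, where 14.4% of all genes were. They were Ccne2 at 0.72, Ccna2 at 0.84, Cdk1 at 0.45 and Ccnb1 at 0.34, and Ccne1 fell just short at 0.3216 against the exact limit of 0.3219.

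**Figure D5:**
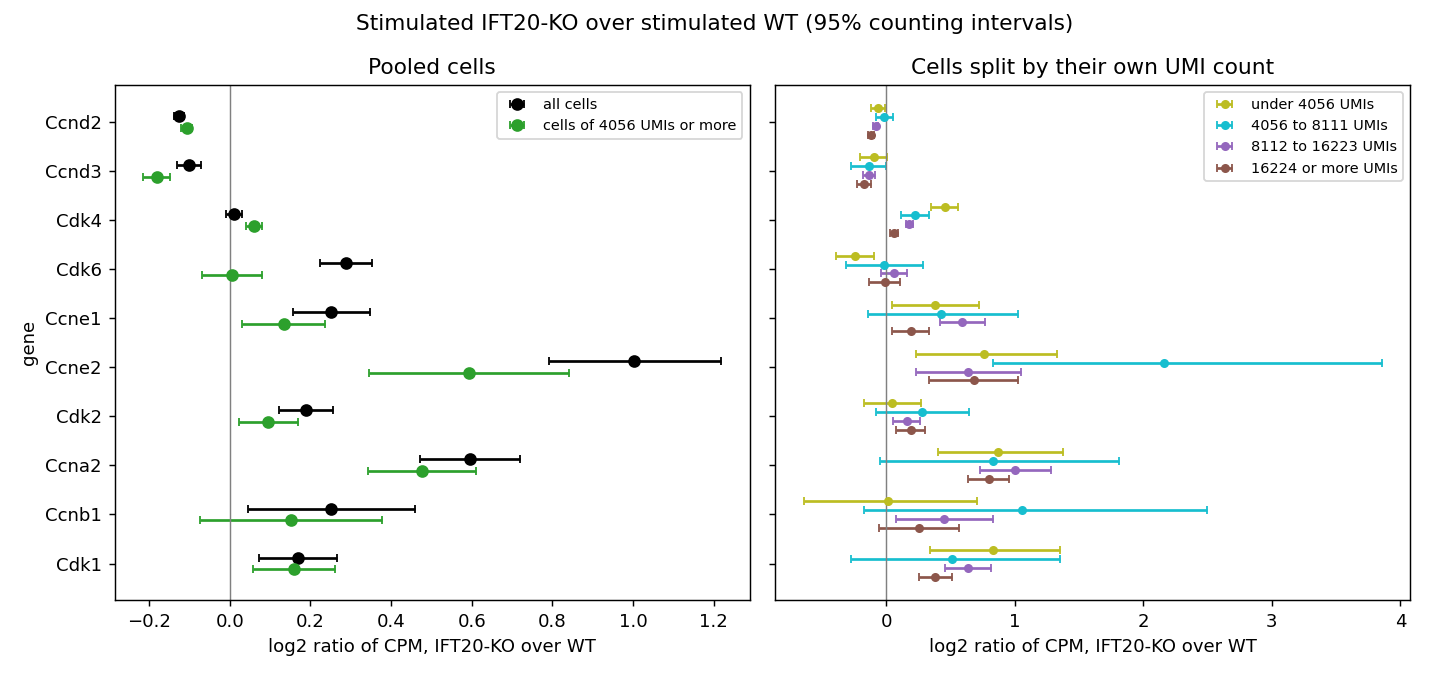
Log2 ratio of CPM of stimulated IFT20-KO over stimulated WT, 1 library each, with 95% counting intervals, for pooled cells (left) and for cells split by their own UMI count (right). In CPM, Ccne2 and Ccna2 lie farthest to the right in the pooled cells, at 1.00 and 0.60. In UMIs per cell all points of the pooled cells would lie 0.63 (all cells) or 0.26 (cells of 4056 UMIs or more) farther left, with Ccna2 at -0.032 over all cells.

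Among cells of 4056 UMIs or more, a larger share in IFT20-KO than in stimulated WT held mitotic and replication transcripts at equal depth. These cells were 52.0% of the IFT20-KO and 76.8% of the stimulated WT library. Smaller cells were not classed, so the shares do not describe the whole libraries. Of cells thinned to 4056 UMIs, 9.04% in IFT20-KO (8.39 to 9.73) had 3 to 9 mitotic UMIs, against 6.39% (5.85 to 6.97) in stimulated WT. Those with 10 or more made up 0.980% (0.766 to 1.23) and 0.605% (0.443 to 0.806). Cells with 0 to 4 replication UMIs made up 12.2% of IFT20-KO and 22.6% of WT cells. Within the class without mitotic UMIs, Ccna2, Ccne2, Cdk1, Ccne1, Cdk6 and Cdk4 were higher in IFT20-KO, with intervals above 0. Ccnd2 and Ccnd3 were lower there, with intervals below 0. There Ccna2 was at 1.12 CPM in WT and 3.07 CPM in IFT20-KO, a log2 ratio of 1.46 (0.66 to 2.3) on 20 and 43 UMIs. Ccne2 was at 0.726 and 2.14 CPM there, a log2 ratio of 1.56 (0.58 to 2.62) on 13 and 30 UMIs. Cdk1 had a log2 ratio of 0.74 (0.29 to 1.19) and Ccne1 one of 0.46 (0.092 to 0.82) there. Among cells with 3 to 9 mitotic UMIs the order was reversed for Cdk1, at 82.2 CPM in WT and 46.7 CPM in IFT20-KO, a log2 ratio of -0.82 (-1.17 to -0.47). It was reversed for Ccna2 too, with a log2 ratio of -0.54 (-0.98 to -0.11) in that class. Ccnd3 had one of -0.46 (-0.63 to -0.29) there, and was lower without mitotic UMIs as well, at -0.11 (-0.19 to -0.017). Ccne2 had a log2 ratio of 1.18 (0.32 to 2.11) in cells with 1 to 2 mitotic UMIs. It had 0.11 (-0.72 to 0.96) with 3 to 9 and -1.04 (-2.85 to 0.68) with 10 or more, where both intervals included 0.

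The resting-pattern cells of IFT20-KO held more UMIs of Ccna2 and Ccne2 too, but few. Before thinning, Ccna2 had 3 UMIs in 131 such WT cells, or 9.24 CPM (1.90 to 27), and 12 UMIs in 159 such IFT20-KO cells, or 23.9 CPM (12.4 to 41.8). Ccne2 had 1 UMI and 9 UMIs, or 3.08 CPM (0.0780 to 17.2) and 17.9 CPM (8.20 to 34.0). The intervals of the libraries overlapped for both genes. The part of free RNA in the difference of the low members between the libraries was not tested.

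Among the regulators of these kinases, the CDK inhibitors moved in opposite directions with stimulation. Cdkn1a, which encodes p21, was at 0.377 CPM in unstimulated and 98.7 CPM in stimulated WT, a log2 ratio of 8.03 (7.28 to 8.90). Cdkn2d, which encodes the CDK4 and CDK6 inhibitor p19, stood at 145 and 16.7 CPM, or -3.12 on the log2 scale (-3.19 to -3.04). Cdkn1b, which encodes p27, stood at 105 and 26.7 CPM, or -1.98 on the log2 scale (-2.05 to -1.91). Of 5 inhibitors that passed the minimum of 10 UMIs out of 7 listed, 1 was 2-fold higher and 2 were 2-fold lower. The shares over all genes were 19.3% and 23%.

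Among the Rb and E2F genes and the activators and brakes of CDKs, some were higher and some lower after stimulation. Of 13 Rb and E2F genes, 5 were 2-fold higher and 2 were 2-fold lower, where 19.3% and 23% of all genes were. The E2F gene E2f1 had 2.77 CPM before and 22.4 CPM after stimulation (log2 ratio 3.01), and its partner Tfdp1 had 21.4 and 145 CPM (2.76). E2f8 had 1 UMI in unstimulated and 206 in stimulated WT. The 2 lower ones were pocket protein genes, Rb1 at a log2 ratio of -1.19 and Rbl2 at -1.39. In UMIs per cell, where every log2 ratio is larger by 1.35, Rb1 changes sign and Rbl2 does not. Of 8 CDK regulators, 5 were 2-fold higher, led by Wee1, an inhibitory kinase of CDK1, which had 0.781 and 19.1 CPM (log2 ratio 4.61). The CDK-binding genes Cks1b and Cks2 followed at 2.63 and 2.51, and the phosphatase gene Cdc25b was lower at -2.92.

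Outside the members, cyclins and CDKs were mostly within 2-fold of their unstimulated CPM. That held for most genes too, as 19.3% of all genes were 2-fold higher and 23% were 2-fold lower. Of 16 other cyclins that passed out of 17, 3 were 2-fold higher (Ccnf, Ccng1 and Ccnh, at 1.85, 1.32 and 1.22) and 2 lower. The lowest was Ccng2 at -2.35, a cyclin known to be high in cells that have left the cycle. Ccnb2, the other B-type cyclin, stood at 1.43 and 0.744 CPM, or -0.94 on the log2 scale (-1.45 to -0.42). In CPM it was thus opposite to Ccnb1. Of 12 other CDKs that passed out of 14, 0 were higher and 2 lower, Cdk12 at -1.0 and Cdk19 at -1.84. Of 8 genes of cyclin turnover, 1 was higher, Skp2 at 1.04, and 1 lower, Ambra1 at -1.01. In UMIs per cell every log2 ratio is larger by 1.35, which turns the sign of Ccnb2, Cdk12 and Ambra1. All 24 replication genes and 26 of 35 mitotic genes were 2-fold higher, with medians of 3.18 and 1.60 and with Cdc6 at 5.18 and Ttk at 4.51 among the highest.

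Set against stimulated WT in cells of 4056 UMIs or more, IFT20-KO had 22 of 35 mitotic genes and 4 of 24 replication genes past the limit higher and 0 of either lower. Over all genes 15.8% were past it higher and 7.7% lower, so the share of the mitotic list was above that of all genes and the share of the replication list was near it. The medians of these lists were 0.41 and 0.20, led by Mki67 at 0.84 and Dtl at 0.48. The inhibitors Cdkn2c (p18) and Cdkn1b were higher too, at 0.55 (0.38 to 0.72) and 0.45 (0.38 to 0.53), while Cdkn1a was at 0.072. Of 13 Rb and E2F genes 4 were higher, E2f7 at 0.71, E2f8 at 0.63, Rbl2 at 0.54 and Tfdp2 at 0.46. E2f1 stood at 0.3202, just under the limit. Wee1 was the single CDK regulator past the limit, at 0.41. Ccnb2 at 0.89 (0.47 to 1.32) and Ccnf at 0.39 were higher among 15 other cyclins, Cdk19 at 0.53 among 12 other CDKs, and Fbxo5, an inhibitor of the anaphase-promoting complex, at 0.42 among 8 turnover genes. The share past the limit in these last 4 groups was below the 15.8% of all genes. In UMIs per cell each of these ratios is lower by 0.26, which turns the sign of the median of the replication list.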

How the data were processed

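The authors processed reads with Cell Ranger and deposited UMI counts per gene and barcode without normalization. The version was 3.1.0 per the file header of the unstimulated WT library, the only header read for it. The paper's methods name an earlier version. The labels name a 5′ kit and the paper's methods a 3′ kit, so which transcript end was counted is uncertain. CPM levels of different genes were not compared. A barcode was kept if it had over 200 genes and a mitochondrial share below 15%, which left out 222, 417 and 12 barcodes. The kept cells held 37133949, 116979076 and 106435143 UMIs, and the lowest UMI count of a deposited barcode was 500, 709 and 1493 in the order of the libraries above. No doublet caller was run.

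UMIs were summed per library and scaled to 1000000. Intervals (95%) are exact Poisson for CPM, exact binomial for ratios and Clopper-Pearson for shares. Members, gene lists and thresholds were chosen with earlier results of these data known. Named beside the members are Ift20, up to 3 highest and 3 lowest genes of each list with at least 50 UMIs, and 3 genes of highest correlation where the first reached 0.2. Tfdp2 and E2f1 in the IFT20-KO comparison, Top2a as a neighbour of Ccnd3, and the examples Mcm2, Pcna, Top2a and Plk1, were named beyond this rule. A gene at 0 was set to 3 counts in a ratio.

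Alternatives were other scalings, cell filters, thinning, minimums and folds. Weighting by depth class was added after seeing the data. The interval calculation was tested on simulated data. Python 3.11.15, numpy 2.4.6, scipy 1.17.1, pandas 2.3.3 and matplotlib 3.10.9 were used.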

Additional observations from a re-analysis of the deposited data

How the results depend on the processing

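The number of members 2-fold higher or lower after stimulation was 8, and lay between 8 and 10 under the 10 alternatives. The number past the log2 limit of 0.32 for IFT20-KO over WT was 2, and became 9 (1 higher, 8 lower) in UMIs per cell, 5 by the mean of per-cell fractions, 6 after thinning to 1400 UMIs, 5 in cells under 4056 UMIs alone and 4 with depth classes weighted as in WT. In UMIs per cell Ccna2 changed sign, at -0.032, and 4.48% of all genes were past the limit higher and 68.5% lower. Without cells under 4056 UMIs the number was also 2, and became 4 after thinning to 1400 or to 4056 UMIs, 4 in cells without mitotic UMIs, 4 with weighted depth classes, 3 (1 higher, 2 lower) in UMIs per cell and 1 at 1.5-fold. The cause of the moves by thinning and by per-cell fractions was not tested. Of all genes in cells under 4056 UMIs alone, 19.2% were past the limit higher and 25.2% lower. Shares of all genes are not given for thinning, per-cell fractions, other folds or filters, or cells without mitotic UMIs. Nor are they given for cells of 4056 UMIs or more in UMIs per cell. Counts under these alternatives, for stimulation or IFT20-KO, are therefore not read as results about the members. Ccne2 was higher in IFT20-KO under every alternative run, between 0.38 and 2.03 over all cells. The classes of 3 to 9 and of 10 or more mitotic UMIs were not among these alternatives, and there its intervals included 0. After stimulation 58.5% of all genes were 2-fold higher in UMIs per cell. No paired analysis was possible because each group is 1 library. The few UMIs of Ccne2, Ccna2, Ccnb1 and Cdk1 in unstimulated cells, and of Ccnb1 in the mitotic classes, limit their ratios.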
